A study of Mus musculus with 16 samples.

Results

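The genes described here are the amino acid transporters of 6 solute carrier families in cultured mouse aortic smooth muscle cells. Earlier results of these data were known when the families were chosen, and membership then went by name alone. It took every row of the deposited table whose gene symbol begins with Slc1a, Slc3a, Slc7a, Slc36a, Slc38a or Slc43a followed by a number. That gave 36 of 20581 genes. A filter on low counts kept 29 of the 36 and 14217 genes in all. It required 1 CPM or more in 4 or more of the 16 libraries, where CPM is a gene's count per library, scaled for depth.

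Total RNA was sequenced from primary smooth muscle cells of the aorta of male C57BL/6J mice, in 4 groups of 4 libraries. The groups were RBC.ARG1-KO cells in DIAM, RBC.ARG1-WT cells in DIAM, RBC.ARG1-KO cells in DMEM and RBC.ARG1-WT cells in DMEM. KO mice carried floxed ARG1 (flox/flox) and a Cre transgene tied to the erythropoietin receptor (ErCre tg), so that arginase 1 was removed in the red blood cell lineage and not by design in the cultured cells. DIAM, meant to load the cells with lipid, added L-ascorbic acid at 50 µg/mL, insulin at 1 µM and dexamethasone at 0.1 µM to DMEM for 10 days. The DMEM cultures were kept in 10% fetal bovine serum. The sources used here do not say whether DIAM held serum or whether the WT mice carried either transgene. The design text names 4 biological replicates per group, but the labels do not say which libraries share an animal, so the p-values measure the spread between these libraries.

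Amino acids cross the plasma membrane and the lysosomal membrane on carriers that differ in substrate and in coupling. SLC7A1 to SLC7A3 take up arginine, lysine and ornithine by themselves, whereas the light chains of the SLC7 family, among them those for leucine (SLC7A5, SLC7A8) and cystine (SLC7A11), need the heavy chain SLC3A2 or SLC3A1 to reach the membrane. SLC1 carriers take up glutamate or small neutral amino acids with sodium, SLC38 carriers move glutamine and alanine, SLC36 carriers move small amino acids with protons, and SLC43 holds sodium-independent carriers of large neutral amino acids together with a purine nucleobase carrier, SLC43A3.

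Total counts were 37221313 to 47626242 per library, and the log2 levels of all genes tested correlated within groups at 0.9802 to 0.9902 (Pearson's r, a description across genes). Each of 8 smooth muscle markers was detected in every library. Their summed level was 1110 to 2040 CPM in KO DIAM, 1030 to 1680 in WT DIAM, 2390 to 4030 in KO DMEM and 2990 to 3800 in WT DMEM libraries. Of the 8, 2 were higher and 4 lower in DIAM in KO cells, and 1 higher (Myocd) and 4 lower in WT cells. The adipocyte markers Adipoq, Plin1, Cidec, Retn and Fabp4 rose in DIAM in both genotypes (5 of 5), with sums of 1890 to 2860 CPM in KO DIAM, 1310 to 2040 in WT DIAM, 57.3 to 100 in KO DMEM and 73.8 to 89.5 in WT DMEM libraries. Cidec and Retn met the filter on low counts only through DIAM libraries, so they were tested only because they were high there. Lep, also listed as an adipocyte marker, was not in the deposited table. Schwann or glial markers summed to 26.3 to 157, 267 to 673, 18.8 to 126 and 24.7 to 86.4 CPM in the same order of groups. Of 6 tested, 1 rose and 1 fell in KO cells, and 5 rose and 1 fell in WT cells. In that order endothelial markers summed to 52 to 92.5, 43.1 to 81.3, 33.9 to 55.9 and 31.8 to 50.7 CPM, with 4 of 6 higher and 1 lower in DIAM in KO cells and 3 of 6 higher in WT cells. Mesothelial markers summed to 169 to 556, 99.5 to 262, 47.2 to 257 and 62.5 to 130 CPM, with 2 of 5, Msln and Krt19, higher in DIAM in both genotypes. The erythroid markers Klf1 and Alas2 summed to 1.72 to 7.89, 0.651 to 2.71, 0.197 to 0.32 and 0.0469 to 0.261 CPM, and Alas2, the one tested, rose in both. Alas2 too met the filter only through its DIAM libraries. Fibroblast markers summed to between 2080 and 2520 CPM in all libraries, yet all 7 changed in DIAM in both genotypes, 4 higher and 3 lower. The part of these cell types in the carrier changes was not tested. Arg1 itself was near absent, with 1 to 4, 0 to 9, 2 to 49 and 3 to 4 counts per library in that order, which does not check the genotype because these are not the cells in which it was removed.

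Promoters of 26 of the 36 genes were found in RefSeq's annotation of GRCm38.p6, as 35 windows of 250 bases before to 50 after a transcript start. They were searched on both strands for the amino acid response element core TGATGNAA, held by 3.97% of all 32851 promoter windows, the E-box CACGTG (7.15%), the antioxidant response element core TGACNNNGC (12.4%) and the glucocorticoid receptor element (0.475%). The 4 windows printed here belong to a carrier of the SLC43 family, in which all 3 rose in DIAM (Slc43a1), the SLC38 carrier with the smallest p among those that fell (Slc38a2), and a pair that both hold the amino acid response core and moved in opposite directions in WT cells (Slc7a11 rose, Slc1a4 fell). Capitals mark the E-box and then the antioxidant response core in Slc43a1, the antioxidant response core in Slc38a2, and the amino acid response core in Slc7a11 (present in both orientations) and Slc1a4, where it overlaps the start. Each runs 5′ to 3′ on the gene's strand.

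Slc43a1 promoter, chr2:84840073-84840372, + strand: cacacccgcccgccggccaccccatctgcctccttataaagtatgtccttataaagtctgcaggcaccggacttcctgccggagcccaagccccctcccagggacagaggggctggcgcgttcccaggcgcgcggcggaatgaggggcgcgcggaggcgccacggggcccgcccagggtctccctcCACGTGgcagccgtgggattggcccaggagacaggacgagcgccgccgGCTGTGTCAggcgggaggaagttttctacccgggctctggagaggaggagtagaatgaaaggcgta

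Slc38a2 promoter, chr15:96699679-96699978, - strand: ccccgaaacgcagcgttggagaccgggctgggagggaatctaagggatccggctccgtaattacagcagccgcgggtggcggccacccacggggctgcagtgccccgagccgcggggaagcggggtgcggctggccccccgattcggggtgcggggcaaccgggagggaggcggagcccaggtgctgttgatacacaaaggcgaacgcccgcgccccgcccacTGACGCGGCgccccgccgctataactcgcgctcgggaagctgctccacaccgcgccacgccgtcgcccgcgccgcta

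Slc7a11 promoter, chr3:50443564-50443863, - strand: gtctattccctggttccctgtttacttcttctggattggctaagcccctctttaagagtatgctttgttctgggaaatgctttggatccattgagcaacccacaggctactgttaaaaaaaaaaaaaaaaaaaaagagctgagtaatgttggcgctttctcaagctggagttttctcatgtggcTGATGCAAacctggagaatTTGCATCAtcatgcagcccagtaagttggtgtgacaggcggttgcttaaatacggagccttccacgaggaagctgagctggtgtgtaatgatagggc

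Slc1a4 promoter, chr11:20332664-20332963, - strand: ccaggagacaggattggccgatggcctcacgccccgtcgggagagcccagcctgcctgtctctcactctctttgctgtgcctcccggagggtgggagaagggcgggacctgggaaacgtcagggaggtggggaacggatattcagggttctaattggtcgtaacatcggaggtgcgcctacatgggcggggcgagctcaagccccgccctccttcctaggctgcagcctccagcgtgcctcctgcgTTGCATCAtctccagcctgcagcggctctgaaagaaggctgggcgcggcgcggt

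None of the matches overlapped another in these 4 windows. The amino acid response core was also found before Slc7a7, and so in 4 of the 35 windows, of Slc1a4, Slc7a11 and Slc7a7. The E-box letters were found in 6 of the 35 windows (Slc1a6, Slc1a7, Slc36a1, Slc38a7, Slc43a1 and Slc7a14) and the antioxidant response core in 6 (of Slc36a1, Slc38a2, Slc43a1, Slc7a1 and Slc7a6), while the glucocorticoid receptor element was found in 1, of Slc38a11, whose level did not pass the test. Where windows of a gene overlap, the same match was counted in each, as for TGATGCAA of Slc7a7 and TGACGTGGC of Slc7a6. No window was found for Slc1a5, Slc36a2, Slc38a1, Slc38a3, Slc43a3, Slc7a2, Slc7a3, Slc7a4, Slc7a5 or Slc7a13, so these were not searched. Of these, Slc1a5, Slc36a2 and Slc43a3 rose more than 2-fold in DIAM, as given below. A match is a match of letters only.

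The first question was what DIAM did to these carriers in each genotype. Of the 29 tested, 20 changed in KO cells (13 higher and 7 lower, edgeR, adjusted p under 0.05), where 60.7% of all genes changed, 29.8% higher and 30.8% lower. In WT cells 24 changed (15 higher and 9 lower), against 55.1% of all genes, 27.6% higher and 27.5% lower. The same 20 genes changed in both genotypes in one direction (46.4% of all genes did), 4 were called in WT cells alone and 5 in neither. A change of at least 2-fold, together with the call, was seen for 8 carriers in KO cells (7 higher, 1 lower; 17.1% of all genes) and 7 in WT cells (all higher; 15.1% of all genes). The median log2 fold change of the 29 was 0.18 in KO cells and 0.18 in WT cells, beside -0.02 and -0.01 for all genes, and the median size of the change was 0.53 and 0.45, beside 0.34 and 0.29.

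**Figure D1:**
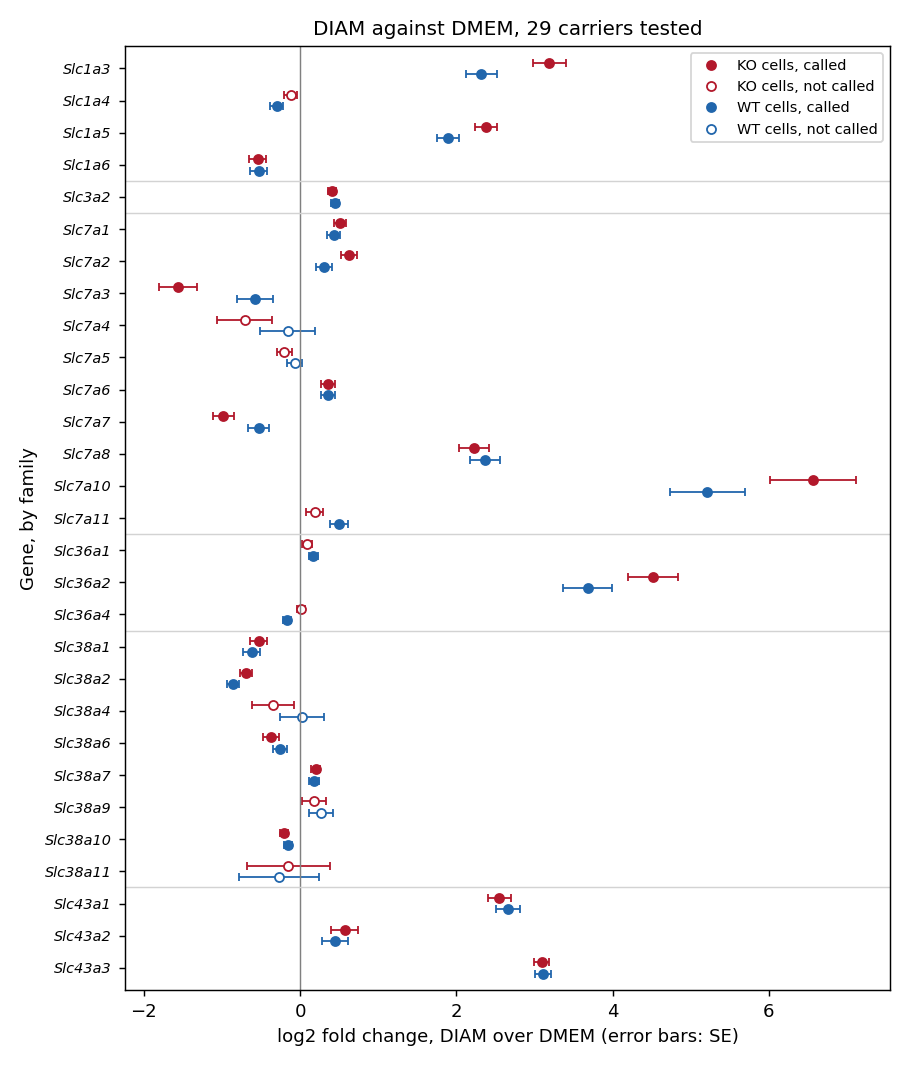
Log2 fold change of DIAM over DMEM (x axis) for the 29 carriers tested (y axis, by family) in KO cells (red) and WT cells (blue), with error bars of 1 SE. Filled points passed an adjusted p of 0.05; 7 carriers lie past 1 on the log2 scale on the right in both genotypes, and Slc7a3 alone lies past -1 on the left, in KO cells.

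The counts going to the 29 carriers summed to 2670 ± 65.1 CPM in KO DIAM, 2410 ± 175 in WT DIAM, 1680 ± 54.7 in KO DMEM and 1710 ± 96.4 in WT DMEM cells (mean ± SD, n = 4 each). Without Slc1a5 and Slc43a3, picked here after their values were seen, the sums were 1580 ± 47.7, 1510 ± 88.1, 1510 ± 45.1 and 1540 ± 81.9 CPM in that order. Most of the gap between media therefore lay in this pair of genes. Per kilobase of exon, which allows genes to be compared, Slc1a5 and Slc43a3 were the 2 highest of the 29 carriers in DIAM, with 233 and 173 CPM per kb in KO cells and 161 and 174 in WT cells. In DMEM the highest was Slc38a2, at 83.7 CPM per kb in KO cells and 83.3 in WT cells, followed by Slc38a10 at 62.7 and 65.5. Exon lengths came from an annotation of GRCm38, a build other than the authors', so these levels per length are approximate. The deposited values themselves did not look divided by length. Of the low ones of genes with 1 annotated transcript (near 1 to 5), 72.3% lay within 0.05 of a whole number at 3 kb or more. The share was 61.7% at 1 to 3 kb and 38.9% under 1 kb. Few values were exactly whole (1.69% in the library with the fewest). A smaller correction for average transcript length is possible and was not stated in the sources.

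In the SLC43 family all 3 carriers rose in both genotypes, where 29.8% of all genes rose in KO cells and 27.6% in WT cells. Slc43a3, the purine nucleobase carrier, stood at 448, 438, 438 and 467 CPM in KO DIAM libraries and 418, 478, 455 and 450 in WT DIAM libraries. In DMEM Slc43a3 had 53.2, 59.7, 42.1 and 55.3 CPM in KO and 51.9, 44.7, 58.6 and 53.2 in WT libraries. No library of either medium came near the other medium, and the genotypes overlapped within each. Its log2 fold change was 3.09 ± 0.10 (SE) in KO cells (adjusted p = 6.58e-13) and 3.11 ± 0.10 in WT cells (adjusted p = 6.16e-13), the smallest p among the carriers in both.

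Slc43a1, also called LAT3, carries leucine and other branched-chain and aromatic amino acids. It had 20.3, 23.2, 21.7 and 25.9 CPM in KO DIAM and 18.1, 19.4, 21.3 and 24.9 in WT DIAM libraries. In DMEM Slc43a1 had 3.12, 4.06, 3.42 and 4.93 CPM in KO and 3.24, 2.69, 3.87 and 3.37 in WT libraries. Every DIAM library was above every DMEM library, and the log2 fold change was 2.55 ± 0.15 in KO cells (adjusted p = 5.54e-10) and 2.66 ± 0.15 in WT cells (adjusted p = 4.49e-10). The third carrier, Slc43a2 (LAT4, a carrier of neutral amino acids), moved less, by 0.57 ± 0.17 in KO cells (adjusted p = 0.00985) and 0.45 ± 0.17 in WT cells (adjusted p = 0.0373), with libraries of the 2 media close together (23 to 35.4 CPM in DIAM, 15.2 to 27.8 in DMEM). Its call in WT cells was lost without any 1 of the WT DIAM libraries 1, 2 and 4 or the WT DMEM libraries 1, 2 and 3 (adjusted p up to 0.126), and in a fit of the WT libraries alone (0.0558). Slc43a1 and Slc43a3 lie on chromosome 2 with 1 coding gene, Rtn4rl2, between them, in RefSeq's annotation.

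Among the SLC1 carriers, Slc1a5 and Slc1a3 rose, Slc1a6 fell, and Slc1a4 was called lower in WT cells. Slc1a5 (ASCT2), the sodium-dependent carrier of glutamine and other neutral amino acids, had 663, 692, 584 and 642 CPM in KO DIAM and 424, 316, 524 and 514 in WT DIAM libraries. In DMEM Slc1a5 had 107, 126, 133 and 130 CPM in KO and 99.6, 126, 127 and 126 in WT libraries. DIAM libraries were far above DMEM libraries in both genotypes, and within DIAM every KO library was above every WT library. The log2 fold change was 2.38 ± 0.14 in KO cells (adjusted p = 7.13e-10) and 1.89 ± 0.14 in WT cells (adjusted p = 1.05e-08).

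Slc1a3 (GLAST), a glutamate and aspartate carrier best known from astrocytes and other glia, had 73.1, 70.7, 52.7 and 67.7 CPM in KO DIAM and 54, 35, 49.5 and 53.6 in WT DIAM libraries. In DMEM Slc1a3 had 6.78, 6.59, 6.57 and 8.96 CPM in KO and 11.1, 8.24, 12.9 and 6.14 in WT libraries. All DIAM libraries exceeded all DMEM libraries. It rose by 3.19 ± 0.21 in KO cells (adjusted p = 5.13e-09) and 2.32 ± 0.20 in WT cells (adjusted p = 1.55e-07) on the log2 scale. The Schwann or glial markers tested had a median log2 fold change of 1.26 in KO cells (1 of 6 higher, 1 lower) and 3.33 in WT cells (5 of 6 higher, 1 lower), and their part in the rise of Slc1a3 was not tested.

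Slc1a6 (EAAT4), a glutamate carrier best known from Purkinje neurons, had 31.5, 26, 31.1 and 24.1 CPM in KO DIAM and 29, 21.7, 32.6 and 29.8 in WT DIAM libraries. In DMEM Slc1a6 had 41.6, 38.9, 39.7 and 43.6 CPM in KO and 40.3, 39, 43.5 and 40.9 in WT libraries. Each DIAM library was below each DMEM library, and the log2 fold change was -0.54 ± 0.11 in KO cells (adjusted p = 0.000401) and -0.53 ± 0.11 in WT cells (adjusted p = 0.000517). Slc1a4 (ASCT1), a carrier of alanine, serine and cysteine, was at 46.6 to 52.1 CPM in KO DIAM, 39.6 to 52.2 in WT DIAM, 51.2 to 61.8 in KO DMEM and 53.4 to 61.7 in WT DMEM libraries. Its log2 fold change passed in WT cells (-0.30 ± 0.08, adjusted p = 0.00624) and did not in KO cells (-0.12 ± 0.08, adjusted p = 0.22), and the difference between the genotypes did not pass either (adjusted p = 0.475).

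**Figure D2:**
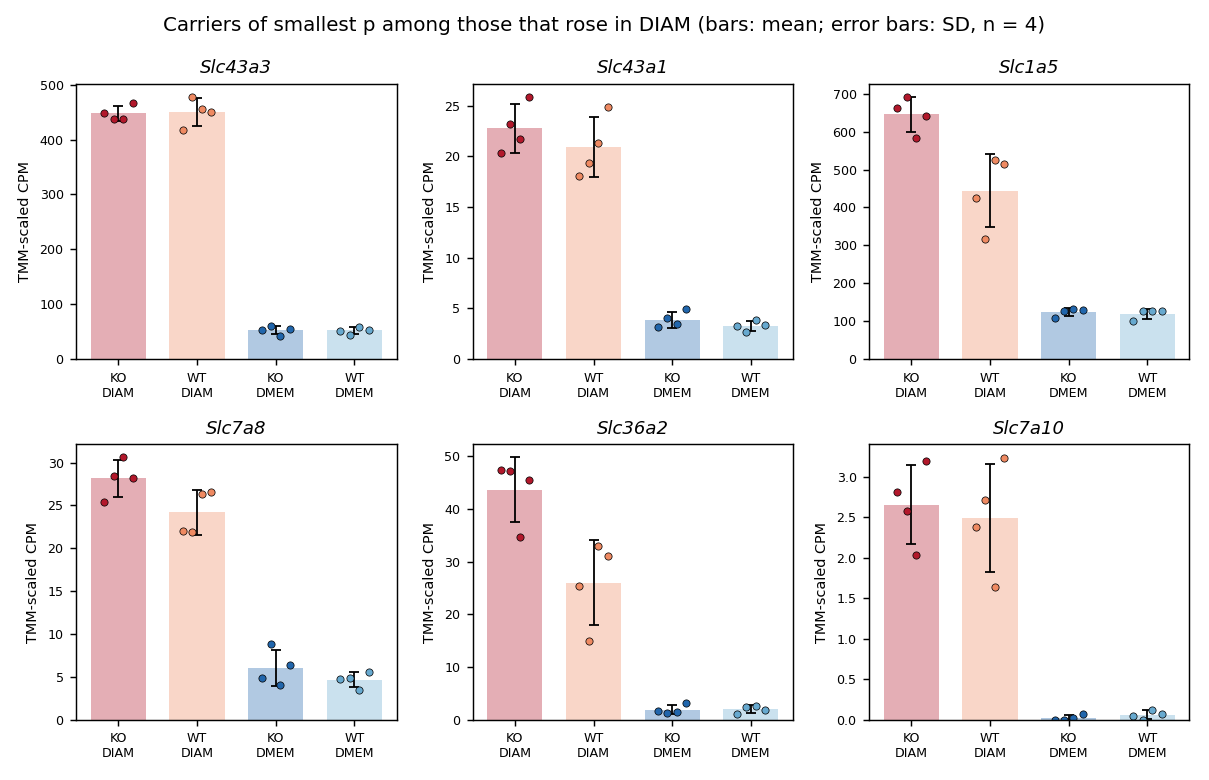
TMM-scaled CPM (y axis, linear, from 0) in each library for the 6 carriers with the smallest p among those that rose in both genotypes, by group (x axis). Bars are means and error bars SD of 4 libraries. In all 6 every DIAM library lies above every DMEM library. The 6 were picked by p in this same comparison, so that separation is not further evidence. Slc7a10 in DMEM lies between 0 and 0.127 CPM.

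Heteromeric carriers of neutral amino acids did not move as a block. Slc7a8 (LAT2), a light chain that exchanges neutral amino acids, had 25.4, 28.4, 30.6 and 28.2 CPM in KO DIAM and 22, 21.9, 26.3 and 26.6 in WT DIAM libraries. In DMEM Slc7a8 had 4.87, 8.79, 4.05 and 6.35 CPM in KO and 4.77, 4.91, 3.53 and 5.52 in WT libraries. The media did not overlap, and the log2 fold change was 2.23 ± 0.19 in KO cells (adjusted p = 5.25e-08) and 2.37 ± 0.19 in WT cells (adjusted p = 3.74e-08). Slc7a5 (LAT1), the light chain that exchanges glutamine for leucine, had 46.3, 55.9, 55 and 54 CPM in KO DIAM and 61, 59.8, 63.1 and 64.6 in WT DIAM libraries. In DMEM Slc7a5 had 48.5, 70.2, 61.4 and 61.9 CPM in KO and 63.8, 62.6, 75.1 and 58.4 in WT libraries. These ranges overlapped between media in both genotypes, and neither change passed (-0.20 ± 0.10, adjusted p = 0.0943 in KO cells; -0.07 ± 0.10, adjusted p = 0.597 in WT cells). The heavy chain Slc3a2 (4F2hc or CD98), shared by these light chains, had 149, 163, 151 and 143 CPM in KO DIAM and 152, 149, 153 and 156 in WT DIAM libraries. In DMEM Slc3a2 had 104, 118, 115 and 121 CPM in KO and 115, 111, 114 and 106 in WT libraries. Every DIAM library was higher, by 0.41 ± 0.05 in KO cells (adjusted p = 4.12e-06) and 0.45 ± 0.05 in WT cells (adjusted p = 1.66e-06) on the log2 scale.

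Slc7a10 (ASC-1), a light chain for serine, alanine, cysteine and glycine that is used as a surface marker of white adipocytes, was near 0 outside DIAM. It had 2.82, 2.58, 2.03 and 3.2 CPM in KO DIAM and 2.38, 2.72, 1.64 and 3.24 in WT DIAM libraries. In DMEM Slc7a10 had 0, 0, 0.0244 and 0.0718 CPM in KO and 0.0463, 0, 0.127 and 0.0742 in WT libraries. Over 4 libraries each, it had 412 estimated counts in KO DIAM, 387 in WT DIAM, 4 in KO DMEM and 11 in WT DMEM cells. The ratio of depth-scaled counts between DIAM and DMEM was 101 in KO cells, with a 95% interval of 39.2 to 373, and 37.4 in WT cells, with an interval of 20.7 to 75.6. These intervals cover counting error only. The test passed in both genotypes (adjusted p = 4.36e-08 in KO cells and 1.48e-07 in WT cells). Slc7a10 met the filter on low counts only through its DIAM libraries, so it was tested only because it was high there. Its annotated exons share 377 bases with Lrp3 on the opposite strand, which an unstranded library cannot tell apart. Lrp3 averaged 41.8 ± 3.2 CPM in KO DIAM, 33.4 ± 4.3 in WT DIAM, 27.8 ± 2.92 in KO DMEM and 28.1 ± 2.74 in WT DMEM cells (SD, n = 4).

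Slc36a2 (PAT2), a proton-coupled carrier of glycine, alanine and proline used as a marker of brown and beige adipocytes, had 47.4, 47.2, 34.6 and 45.5 CPM in KO DIAM and 25.3, 14.9, 32.9 and 31.1 in WT DIAM libraries. In DMEM Slc36a2 had 1.62, 1.34, 1.49 and 3.14 CPM in KO and 1.11, 2.45, 2.65 and 1.91 in WT libraries. Each KO DIAM library was above each WT DIAM library, and all DIAM libraries were above all DMEM libraries. It rose by 4.52 ± 0.32 in KO cells (adjusted p = 1.31e-08) and 3.68 ± 0.31 in WT cells (adjusted p = 1.17e-07) on the log2 scale. The lowest KO DIAM library for Slc36a2, Slc1a5 and Slc1a3 was library 3, with the lowest adipocyte marker sum of its group (1890 CPM). For all 3 the lowest WT DIAM library was library 2, which had the lowest adipocyte sum of the 8 DIAM libraries (1310 CPM). Other carriers that rose were mixed. Slc43a3 was highest in WT DIAM library 2 (478 CPM). Slc7a8 was highest in KO DIAM library 3 (30.6 CPM) and lowest in WT DIAM library 2 (21.9 CPM). Slc7a10 was lowest in library 3 of KO DIAM (2.03 CPM) and of WT DIAM (1.64 CPM), and Slc43a1 in library 1 of each (20.3 and 18.1 CPM). The part of adipocyte-like cells in these rises was not tested, and in bulk RNA more cells of a type and more RNA per cell cannot be told apart. The neighbour of Slc36a2 on chromosome 11, Slc36a1 (PAT1, mostly lysosomal), was at 36.8 to 39.2 CPM in KO DIAM, 40.7 to 44.5 in WT DIAM, 32.3 to 38.4 in KO DMEM and 34.7 to 39.1 in WT DMEM libraries. Its log2 fold change was 0.09 ± 0.06 in KO cells (adjusted p = 0.199) and 0.17 ± 0.06 in WT cells (adjusted p = 0.022). The WT call was lost without WT DIAM library 1 (adjusted p = 0.0559) or WT DMEM library 1 (adjusted p = 0.058). Slc36a4 (PAT4) was at 49.5 to 55.4 CPM in KO DIAM, 47 to 52.6 in WT DIAM, 49.8 to 55.3 in KO DMEM and 56 to 59.9 in WT DMEM libraries, and fell in WT cells by 0.17 on the log2 scale (adjusted p = 0.012), whereas in KO cells the value was 0.01 ± 0.05 (adjusted p = 0.921).

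Carriers of arginine and other cationic amino acids moved in both directions in DIAM. Slc7a1 (CAT-1), the widespread uptake carrier for arginine, had 68.4, 75.9, 74.1 and 73.4 CPM in KO DIAM and 69.8, 63.4, 85.1 and 80.6 in WT DIAM libraries. In DMEM Slc7a1 had 49.8, 50.3, 56.6 and 48.7 CPM in KO and 55.4, 54.1, 58.7 and 53.5 in WT libraries. DIAM libraries were all higher, and the log2 fold change was 0.51 ± 0.08 in KO cells (adjusted p = 4.01e-05) and 0.43 ± 0.08 in WT cells (adjusted p = 0.000223). Slc7a2 (CAT-2), inducible by cytokines in macrophages and smooth muscle, had 184, 217, 234 and 202 CPM in KO DIAM and 159, 154, 183 and 204 in WT DIAM libraries. In DMEM Slc7a2 had 130, 124, 147 and 137 CPM in KO and 121, 149, 152 and 142 in WT libraries. The media did not overlap in either genotype. Its exons share 635 bases with the non-coding gene Gm26584 on the opposite strand, which was not analysed here. Slc7a2 rose by 0.63 ± 0.10 in KO cells (adjusted p = 3.7e-05) and 0.31 ± 0.10 in WT cells (adjusted p = 0.0125) on the log2 scale, and the WT call was lost without WT DIAM library 4 (adjusted p = 0.0529).

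Slc7a3 (CAT-3), a carrier mainly of brain, was close to the filter, at 0.466, 0.559, 0.74 and 0.494 CPM in KO DIAM and 0.985, 1.18, 0.642 and 0.858 in WT DIAM libraries. In DMEM Slc7a3 had 1.26, 1.84, 1.59 and 1.96 CPM in KO and 1.16, 1.14, 1.44 and 1.73 in WT libraries. KO libraries of the 2 media did not overlap and WT libraries did. It fell in KO cells by 1.56 on the log2 scale (adjusted p = 3.67e-05), and in WT cells by 0.57 (adjusted p = 0.046). Slc7a3 met the filter on low counts only through its DMEM libraries, so it was tested only because it was high there. The WT call was lost without the filter on low counts (adjusted p = 0.063) and in a fit of the WT libraries alone (0.0696), and the authors' deposited table gives it an adjusted p of 0.0922. It was also lost without any 1 of KO DIAM libraries 2 and 4, WT DIAM libraries 1, 3 and 4, KO DMEM library 3 and WT DMEM libraries 3 and 4 (adjusted p up to 0.142).

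Slc7a6 and Slc7a7, the y+LAT light chains that release arginine in exchange for glutamine and sodium, went opposite ways. Slc7a6 had 64, 77.6, 60.9 and 69.2 CPM in KO DIAM and 70, 70.3, 72.5 and 75.4 in WT DIAM libraries. In DMEM Slc7a6 had 59.9, 56.9, 52.5 and 43 CPM in KO and 57.2, 53.1, 58.8 and 55.4 in WT libraries. Every DIAM library was higher, with a log2 fold change of 0.36 ± 0.09 in KO cells (adjusted p = 0.00257) and 0.36 ± 0.09 in WT cells (adjusted p = 0.00269). Slc7a7 had 6.41, 7.12, 7.23 and 7.04 CPM in KO DIAM and 10.6, 10.8, 7.6 and 9.01 in WT DIAM libraries. In DMEM Slc7a7 had 12.4, 15, 15.8 and 11.8 CPM in KO and 14.3, 11.8, 16.6 and 12.1 in WT libraries. Every DIAM library was lower, by a log2 fold change of -0.98 ± 0.13 in KO cells (adjusted p = 1.05e-05) and -0.53 ± 0.13 in WT cells (adjusted p = 0.00307). SLC7A7 is also abundant in macrophages, and the macrophage or leukocyte markers summed to 1030 to 1340 CPM in KO DIAM, 801 to 1390 in WT DIAM, 1070 to 2370 in KO DMEM and 794 to 1760 in WT DMEM libraries, with 4 of 7 lower in DIAM in KO cells and 1 of 7 changed, upwards, in WT cells. Their part in the fall of Slc7a7 was not tested. Slc7a7 shares 232 exon bases with Oxa1l on the opposite strand, which averaged 37.5 ± 1.05 CPM in KO DIAM, 33.7 ± 0.559 in WT DIAM, 28.2 ± 1.03 in KO DMEM and 28.9 ± 1.44 in WT DMEM cells (SD, n = 4).

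**Figure D3:**
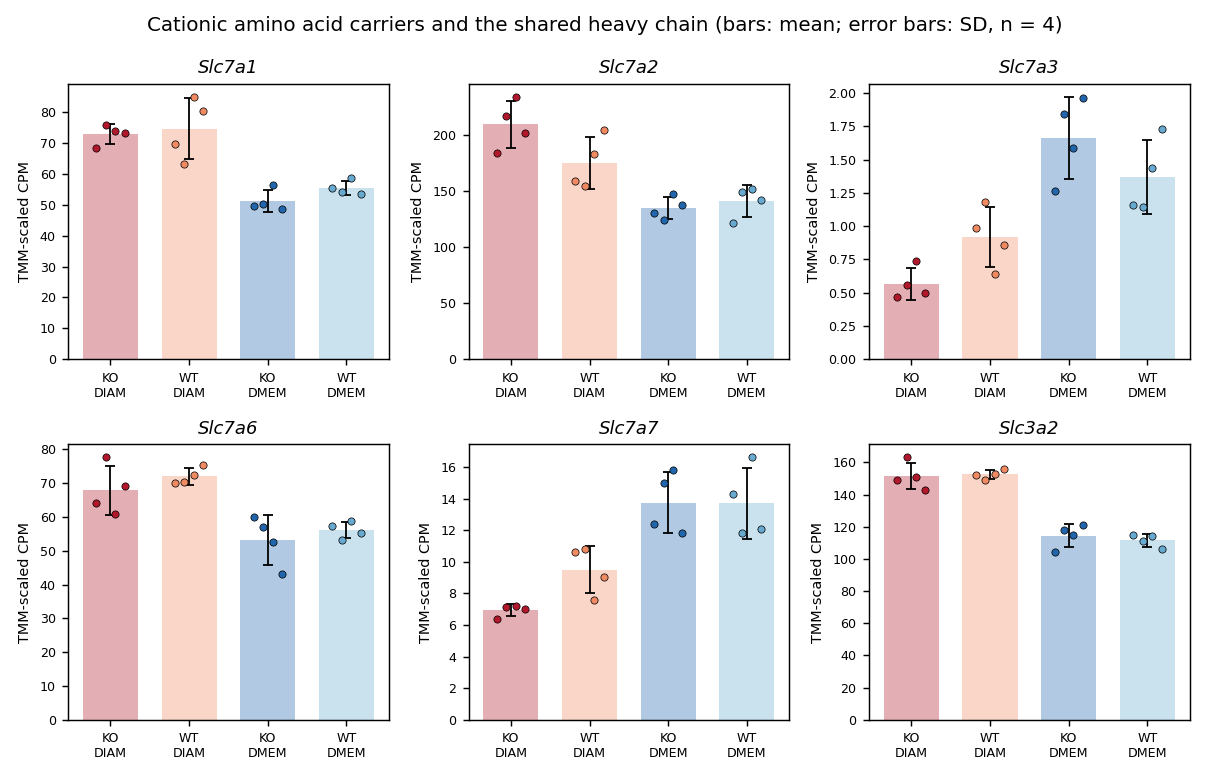
TMM-scaled CPM (y axis, linear, from 0) in each library for the carriers of cationic amino acids and the heavy chain Slc3a2, by group (x axis). Bars are means and error bars SD of 4 libraries; Slc7a1, Slc7a2, Slc7a6 and Slc3a2 are higher in DIAM, and Slc7a3 and Slc7a7 are lower.

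Slc7a11 (xCT), the cystine and glutamate exchanger whose promoter is shown above, had 7.16, 5.61, 6.85 and 6.86 CPM in KO DIAM and 8.65, 8.24, 8.73 and 7.64 in WT DIAM libraries. In DMEM Slc7a11 had 5.92, 6.1, 4.96 and 6.3 CPM in KO and 5, 5.71, 6.24 and 6.61 in WT libraries. WT libraries of the 2 media did not overlap and KO libraries did. It rose by 0.50 ± 0.11 in WT cells (adjusted p = 0.00118) and its value in KO cells was 0.19 ± 0.11 (adjusted p = 0.158), while the difference between genotypes did not pass (adjusted p = 0.344).

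In the SLC38 family Slc38a2, Slc38a1, Slc38a10 and Slc38a6 fell in both genotypes and Slc38a7 rose. Slc38a4, Slc38a9 and Slc38a11 were called in neither. Of all genes 30.8% fell in KO cells and 27.5% in WT cells. Slc38a2 (SNAT2), the system A carrier of small neutral amino acids that is known to be induced when amino acids are scarce, had 229, 249, 254 and 237 CPM in KO DIAM and 207, 186, 227 and 235 in WT DIAM libraries. In DMEM Slc38a2 had 378, 367, 385 and 428 CPM in KO and 340, 396, 411 and 404 in WT libraries. Every DIAM library was below every DMEM library, by a log2 fold change of -0.69 ± 0.08 in KO cells (adjusted p = 1.24e-06) and -0.86 ± 0.08 in WT cells (adjusted p = 1.24e-07). Its neighbour on chromosome 15, Slc38a1 (SNAT1), which carries glutamine, had 40.2, 29.5, 33.6 and 33.8 CPM in KO DIAM and 27.6, 27.5, 32.2 and 35.3 in WT DIAM libraries. In DMEM Slc38a1 had 52.8, 51.4, 41.4 and 51.8 CPM in KO and 41.6, 47.1, 48.9 and 50.2 in WT libraries. The media did not overlap, and the change was -0.53 ± 0.11 in KO cells (adjusted p = 0.000436) and -0.62 ± 0.11 in WT cells (adjusted p = 0.000129). The gene on the other side of Slc38a2, Slc38a4 (SNAT4), was low in every group (0.648 to 1.92 CPM) and did not pass in either genotype (adjusted p = 0.288 in KO cells and 0.943 in WT cells).

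Smaller falls were seen for Slc38a10 and Slc38a6, whose substrates are less well defined. Slc38a10 had 279, 304, 299 and 305 CPM in KO DIAM and 337, 312, 322 and 315 in WT DIAM libraries. In DMEM Slc38a10 had 323, 341, 356 and 341 CPM in KO and 333, 351, 386 and 352 in WT libraries. KO libraries of the 2 media did not overlap and WT libraries did, with changes of -0.20 ± 0.05 in KO cells (adjusted p = 0.00394) and -0.15 ± 0.05 in WT cells (adjusted p = 0.0266). Slc38a6 (SNAT6) had 11.9, 12.8, 11.8 and 14.8 CPM in KO DIAM and 14.8, 15.4, 12.6 and 13.6 in WT DIAM libraries. In DMEM Slc38a6 had 16.8, 17.5, 15.3 and 16.9 CPM in KO and 17, 15.4, 15.5 and 19.5 in WT libraries. KO libraries of the 2 media did not overlap and WT libraries met at 15.4 CPM. The changes were -0.37 ± 0.10 (adjusted p = 0.00297) in KO cells and -0.26 ± 0.09 (adjusted p = 0.0294) in WT cells. Their WT calls did not survive leaving out any 1 of 4 WT libraries (Slc38a10 without DIAM 2, 3 or 4 or DMEM 3, adjusted p up to 0.0756; Slc38a6 without DIAM 3 or 4 or DMEM 1 or 4, up to 0.114). A fit of the WT libraries alone also lost both (adjusted p = 0.0683 for Slc38a10 and 0.0542 for Slc38a6), and the authors' deposited table gives them adjusted p-values of 0.0707 and 0.0533.

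Of the carriers placed at the lysosome, Slc38a7 (SNAT7) releases glutamine from it. It was at 43.1 to 44.6 CPM in KO DIAM, 41.9 to 46.9 in WT DIAM, 37.5 to 38.7 in KO DMEM and 33.8 to 42.7 in WT DMEM libraries. The rise was 0.20 ± 0.06 in KO cells (adjusted p = 0.0119) and 0.18 ± 0.06 in WT cells (adjusted p = 0.0233), and the WT call was lost without WT DIAM library 1 or WT DMEM library 1 or 4 (adjusted p up to 0.0549) and in a fit of the WT libraries alone (0.0689). The authors' deposited table gives Slc38a7 an adjusted p of 0.12 in WT cells. Slc38a9, the arginine sensor of mTORC1 at the lysosome, was at 8.96 to 12.2 CPM in KO DIAM, 11 to 12 in WT DIAM, 7.2 to 11.9 in KO DMEM and 8.16 to 11 in WT DMEM libraries. It did not pass (0.18 ± 0.15, adjusted p = 0.313 in KO cells; 0.27 ± 0.15, adjusted p = 0.125 in WT cells). The remaining carriers tested were near the filter and did not pass in either genotype: Slc38a11 lay between 0.118 and 1.28 CPM and Slc7a4 between 0.411 and 2.12 CPM over all libraries.

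**Figure D4:**
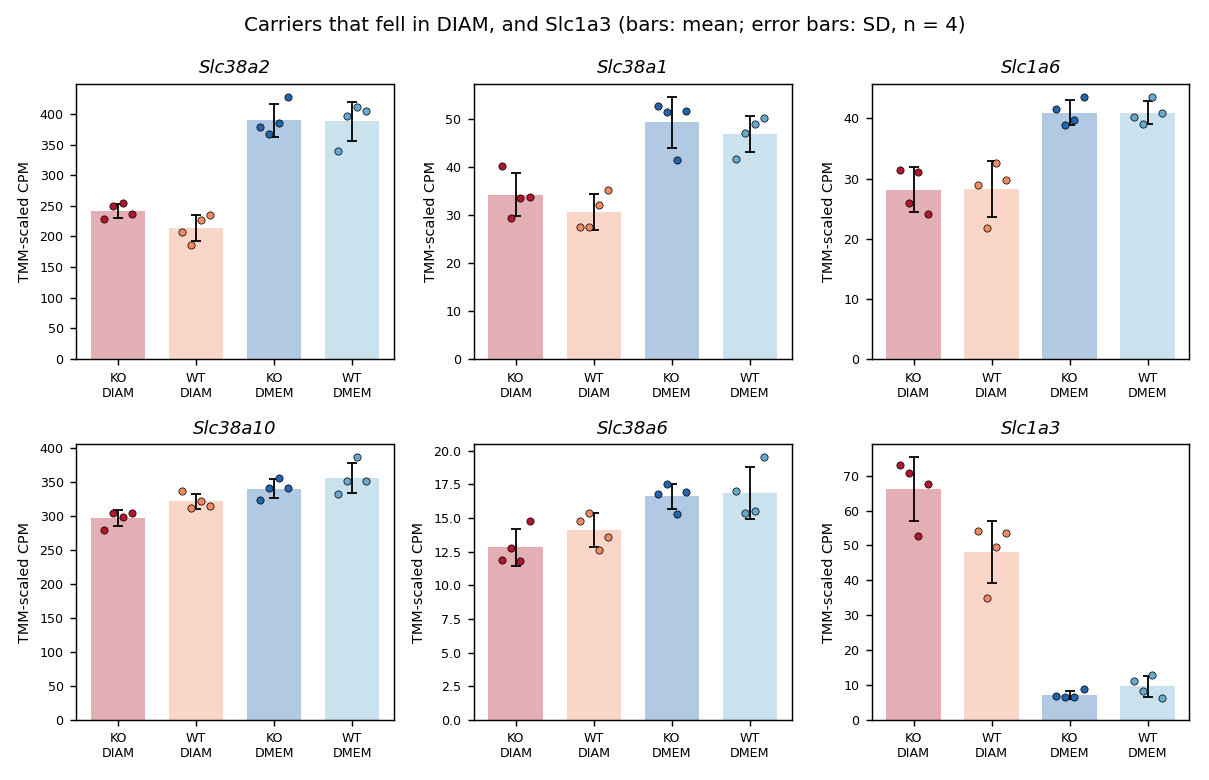
TMM-scaled CPM (y axis, linear, from 0) in each library for 5 carriers that fell in DIAM in both genotypes and for Slc1a3, which rose, by group (x axis). Bars are means and error bars SD of 4 libraries; all DIAM libraries of Slc38a2, Slc38a1 and Slc1a6 lie below all DMEM libraries, and those of Slc1a3 lie above.

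The 7 carriers below the filter were not tested. They were the glutamate carriers Slc1a1 (EAAT3), Slc1a2 (GLT-1) and Slc1a7 (EAAT5), the glutamine carrier Slc38a3 (SNAT3), the heavy chain Slc3a1 (rBAT), its partner Slc7a13, and Slc7a14. The highest value of any of them in any library was 1.81 CPM, for Slc1a2 in WT DIAM library 2. Summed over 4 libraries, Slc7a13 had 148 counts in KO DIAM and 144 in WT DIAM cells, against 37 in KO DMEM and 42 in WT DMEM cells, while Slc3a1 had 27, 21, 25 and 18 counts in that order. Slc1a1 shares 2631 exon bases and Slc3a1 shares 601 with coding genes on the opposite strand (4430402I18Rik and Prepl), so their low counts are uncertain. Exons of Slc7a4, Slc43a2, Slc38a10, Slc38a9 and Slc1a2 also share 554, 922, 367, 182 and 189 bases with genes on the opposite strand.

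The second question was whether the loss of arginase 1 in red blood cells of the donor mouse left a difference between KO and WT cells. In DIAM 1 of the 29 carriers was called, Slc1a5, where 8.38% of all genes were called, 3.43% higher and 4.95% lower. At an unadjusted p under 0.05 there were 11 of 29, where 25.7% of all genes passed. Slc1a5 was higher in KO cells by 0.54 ± 0.13 on the log2 scale (adjusted p = 0.0252), with all 4 KO libraries (584 to 692 CPM) above all 4 WT libraries (316 to 524 CPM). The call was lost without KO DIAM library 1 (adjusted p = 0.0704) or 2 (0.0837) or WT DIAM library 1 (0.0715), and in a fit of the 2 DIAM groups alone (0.075), with the log2 fold change between 0.41 and 0.63 over all libraries left out in turn. That fit of the 2 DIAM groups alone called 0% of all genes, so every edgeR call between genotypes in DIAM given here is lost in it.

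Next by p were Slc7a7, at -0.45 ± 0.14 (adjusted p = 0.0507), with all KO DIAM libraries (6.41 to 7.23 CPM) below all WT DIAM libraries (7.6 to 10.8 CPM), and Slc7a11, at -0.33 ± 0.11 (adjusted p = 0.0743), with KO libraries (5.61 to 7.16 CPM) below WT libraries (7.64 to 8.73 CPM). Slc7a7 was called without WT DIAM library 3 (adjusted p = 0.0217), WT DMEM library 3 (0.0459) or KO DMEM library 3 (just under 0.05). The authors' deposited table gives an adjusted p under 0.05 to 6 carriers in this comparison. These are Slc1a5 (log2 fold change 0.54, adjusted p = 0.00608), Slc36a2 (0.75, 0.00958), Slc7a7 (-0.45, 0.0155), Slc1a3 (0.47, 0.0262), Slc7a5 (-0.23, 0.0309) and Slc7a11 (-0.32, 0.0453), all from the authors' deposited table. In the edgeR fit Slc36a2, Slc1a3 and Slc7a5 had the same signs and adjusted p = 0.0887, 0.141 and 0.145. The adipocyte marker sum was 1890 to 2860 CPM in KO DIAM and 1310 to 2040 in WT DIAM libraries, with all 5 adipocyte markers fitted above 0 and 1 of 5, Plin1, called (adjusted p = 0.0494, 0.0865 in the fit of the 2 DIAM groups alone and up to 0.13 with 1 library left out). The Schwann or glial markers summed to 26.3 to 157 CPM in KO DIAM and 267 to 673 in WT DIAM libraries, without overlap. Their median log2 fold change was -1.94, and 5 of 6 had an unadjusted p under 0.05 while none passed after adjustment. The part of either marker list in the carriers' differences was not tested.

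**Figure D5:**
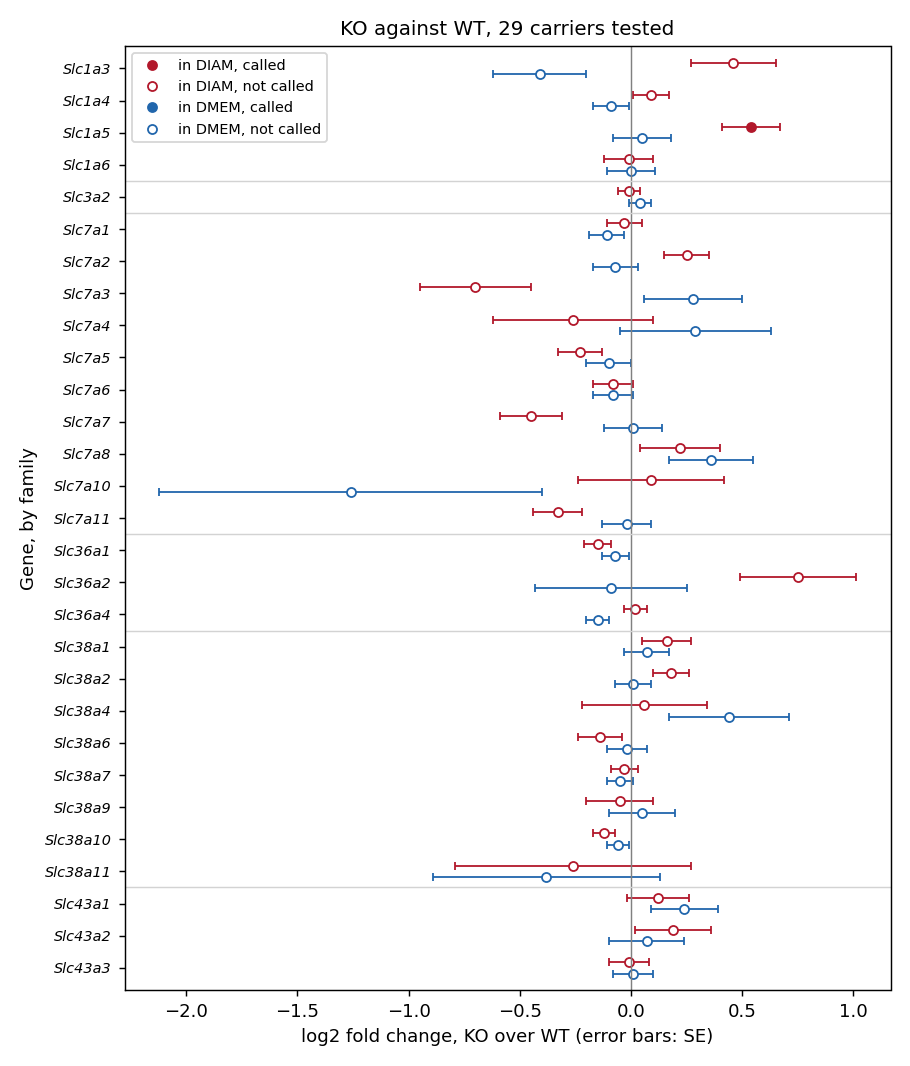
Log2 fold change of KO over WT (x axis) for the 29 carriers tested (y axis, by family) in DIAM (red) and in DMEM (blue), with error bars of 1 SE. The single filled point is Slc1a5 in DIAM, at 0.54; the wide bars belong to carriers near 0 CPM, such as Slc7a10 in DMEM.

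In DMEM no carrier was called between KO and WT cells (edgeR), nor was any other gene (0% of 14217). At an unadjusted p under 0.05 there was 1 carrier of 29, Slc36a4, beside 438 genes in all (3.08%). DESeq2 called 0 carriers and 0.00703% of all genes. The 3 carriers of smallest p were Slc36a4 (-0.15 ± 0.05), Slc1a3 (-0.41 ± 0.21) and Slc7a8 (0.36 ± 0.19), each with an adjusted p of 1.

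Whether the response to DIAM differed between genotypes was asked with the interaction term, which called no carrier and no gene (edgeR, 0% of 14217). At an unadjusted p under 0.05 it gave 6 of 29 carriers and 2255 genes in all (15.9%). DESeq2 called 0 carriers and 1.58% of all genes. The smallest p among the carriers belonged to Slc1a3 (0.88 ± 0.28, adjusted p = 0.195), Slc7a3 (-0.98 ± 0.33, adjusted p = 0.204) and Slc1a5 (0.49 ± 0.19, adjusted p = 0.24). The steps in which KO and WT calls differed, for Slc7a11, Slc1a4, Slc36a1 and Slc36a4, are therefore not shown to differ between genotypes.

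Genes that sense, use or respond to the same amino acids were followed in 6 lists, read against the same shares of all genes. Among 14 tested amino acid carriers of other families, 5 rose and 4 fell in KO cells, and 4 rose and 3 fell in WT cells, with a median log2 fold change of 0.01 and 0.11. The glycine carrier Slc6a9 rose by 0.77 in KO and 0.66 in WT cells on the log2 scale, and the taurine carrier Slc6a6 fell by 1.28 in KO and 1.72 in WT cells. Of 25 genes of amino acid sensing at or upstream of mTORC1, 6 rose and 10 fell in KO cells. In WT cells 4 rose and 9 fell, and the medians were -0.10 in KO and -0.09 in WT cells. The 1 gene called past 2-fold was Sesn3, a stress-inducible sestrin, which fell to 56.9 ± 7.86 CPM in KO DIAM and 78.6 ± 11.3 in WT DIAM cells, against 208 ± 17.2 in KO DMEM and 214 ± 2.76 in WT DMEM cells (SD, n = 4).

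Of 21 genes of the amino acid response, which acts through GCN2 and ATF4, 10 fell and 5 rose in KO cells, and 10 fell and 2 rose in WT cells, with medians of -0.19 and -0.14. Trib3, a pseudokinase induced by ATF4, fell by 1.82 in KO and 1.33 in WT cells on the log2 scale, and Aldh18a1, the first enzyme of proline synthesis from glutamate, by 0.92 in KO and 0.68 in WT cells. In the same list the stress-induced factor Atf3 rose by 1.29 in KO and 2.16 in WT cells. Between genotypes in DIAM 7 of the 21 were lower in KO cells and none higher, with a median of -0.11 beside 0 for all genes. The count was 0 in the fit of the 2 DIAM groups alone, 4 without KO DIAM library 3, and 1 without any 1 of KO DIAM libraries 1 and 2 and WT DIAM libraries 1 and 2.

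Among 11 genes of arginine use, 2 rose and 5 fell in KO cells, and 4 rose and 5 fell in WT cells, with medians of -0.58 and 0.03. Ddah1, which breaks down the nitric oxide synthase inhibitor dimethylarginine, fell by 1.53 in KO and 1.32 in WT cells on the log2 scale, and Odc1, which starts polyamine synthesis, by 0.80 in KO and 0.70 in WT cells. In DIAM 3 of the 11 were lower in KO than in WT cells (median -0.25), 0 in the fit of the 2 DIAM groups alone, 5 without WT DIAM library 4, and 0 to 1 without KO DIAM library 1 or 2 or WT DIAM library 1 or 2.

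Among 16 enzymes of glutamine, glutamate and glutathione, 10 rose and 3 fell in KO cells and 11 rose and 1 fell in WT cells, with medians of 0.39 and 0.54. Glul, the glutamine synthetase and a known glucocorticoid target, reached 1840 ± 104 CPM in KO DIAM and 1300 ± 218 in WT DIAM cells, against 95.8 ± 4.68 in KO DMEM and 91.5 ± 11.5 in WT DMEM cells. In DIAM it was also higher in KO than in WT cells (0.50 ± 0.11, adjusted p = 0.0156), a call lost in the fit of the 2 DIAM groups alone (adjusted p = 0.0648) and without KO DIAM library 2 (0.058) or WT DIAM library 1 (0.0531). Gclc, the catalytic subunit that starts glutathione synthesis, rose by 2.08 in KO and 1.73 in WT cells on the log2 scale. Between genotypes in DIAM 4 of the 16 were higher and 1 lower in KO cells, 0 were called in the fit of the 2 DIAM groups alone, and 1 to 3 without KO DIAM library 1 or 2 or WT DIAM library 1 or 2. The other carriers (3 called) and the mTORC1 list (2 called) had 0 to 1 called without any 1 of these 4 libraries.

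Leucine, which Slc43a1 and Slc7a8 can carry, can enter branched-chain amino acid breakdown, though its use was not measured here. Of 13 genes of this breakdown, 10 were higher and 2 lower in KO cells. In WT cells 9 were higher and 2 lower, and the medians were 0.90 in KO and 0.58 in WT cells. Bcat2, the mitochondrial aminotransferase that begins the breakdown, had 150 ± 18 CPM in KO DIAM and 109 ± 16.2 in WT DIAM cells, against 33.8 ± 0.879 in KO DMEM and 33.7 ± 1.62 in WT DMEM cells (SD, n = 4). Bckdk, the kinase that switches the pathway's dehydrogenase off, fell by 0.47 in KO and 0.36 in WT cells on the log2 scale. Between genotypes in DIAM 8 of the 13 were higher in KO cells and none lower (median 0.32), 0 were called in the fit of the 2 DIAM groups alone, and 1 to 3 without KO DIAM library 1 or 2 or WT DIAM library 1 or 2. Adipocytes are rich in this pathway, and their marker sums, given above, moved with it, a part that was not tested.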

How the data were processed

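The authors deposited 1 table with a value per gene and library, for 16 libraries made with an unstranded kit after depletion of ribosomal RNA, per the labels' protocols. Salmon 1.9.0, FastQC, R 4.4.2 and DESeq2 1.46.0 and the build GRCm39 are listed, per the submitters' processing notes. The annotation was not given in the sources. Per the labels the values are TPM, but the deposited columns sum to different totals of 37221313 to 47626242, so they were treated as estimated counts and rounded. The table also holds the authors' mean signal over all libraries (not used), log2 fold changes, p-values and adjusted p-values, printed only where named as the authors'.

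Genes at 1 CPM or more in at least 4 libraries were tested with edgeR 4.0.16 (R 4.3.3; quasi-likelihood, two-sided, TMM scaling, robust) in 1 model of all 4 groups (12 residual degrees of freedom), and adjusted by Benjamini-Hochberg over 14217 genes at 0.05. An SE is the size of the log2 fold change over the square root of the F value. A limma fit of log2 TPM had been set as the choice for TPM values and was not needed. The code was tested on simulated data. Alternatives used DESeq2 1.42.0, limma 3.58.1, other filters, scalings and thresholds, and each library left out.

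The members, the 6 lists and the markers were chosen with earlier results of these data known. Values of every library are given for up to 6 carriers that rose and 6 that fell with the smallest p in both genotypes (at 1 CPM or more on average), the cationic carriers with Slc3a2, the 3 of smallest p in each genotype comparison and the interaction, and Slc7a11 and Slc7a5; of each list up to 3 genes per direction. Other genes were named with their values in view. The labels do not say that a replicate number pairs libraries, and not every same-numbered pair correlated at over 0.1, so the number was a block only in an alternative.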

Additional observations from a re-analysis of the deposited data

Results flagged for a closer look

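In 9 of 116 groups of 4 libraries 1 library stood apart from the other 3 by more than Dixon's critical value allows. Chance alone flags about 1 group in 20. In KO DIAM, Slc36a2 was lowest in library 3 (34.6 CPM, the others 45.5 to 47.4). In WT DIAM, Slc36a4 was lowest in library 2 (47 CPM, the others 52.3 to 52.6).

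In KO DMEM, library 4 was highest for Slc1a3 (8.96 CPM, the others 6.57 to 6.78), Slc36a2 (3.14 CPM, the others 1.34 to 1.62) and Slc38a7 (38.7 CPM, the others 37.5 to 37.7). Library 3 of that group was highest for Slc1a4 (61.8 CPM, the others 51.2 to 52.1) and lowest for Slc38a1 (41.4 CPM, the others 51.4 to 52.8). In WT DMEM, library 1 was lowest for Slc1a5 (99.6 CPM, the others 126 to 127) and Slc36a1 (34.7 CPM, the others 38.4 to 39.1).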

How the results depend on the processing

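None of the 53 results for single carriers changed sign under the alternatives run (list genes and markers were not followed one by one), and no scaling moved the median of all genes by more than 0.02 on the log2 scale. In DIAM against DMEM 20 carriers were called in KO cells, and 20 to 22 when 1 library was left out. In WT cells 24 were called (15 higher, 9 lower), and 19 to 24 with 1 library left out. There were 20 in a fit of the WT libraries alone (14 higher, 6 lower) and 22 with a filter at 5 CPM. Over all 36 carriers, 27 were called with no filter (18 higher, 9 lower), where 40.5% of all genes were. The authors' adjusted p, also over all 36, called 24 (18 higher, 6 lower), where 39.2% of all genes passed. Those 24 are another set, without Slc38a6, Slc38a7, Slc38a10 and Slc7a3. They include Slc7a13 (authors' adjusted p = 6.9e-06), Slc1a1 (0.00111), Slc7a14 (0.0125) and Slc1a2 (0.0415), which were below the filter here. At a fold threshold (log2 size of 1 or more besides the call), 8 carriers in KO cells and 7 in WT cells were called, and of the lists 5 other carriers in KO cells, 1 and 1 sensing genes in KO and WT cells, 3 and 2 response genes, 2 and 3 arginine genes, 7 and 7 glutamine and glutathione genes, and 4 and 1 genes of branched-chain breakdown. KO against WT in DIAM depended most on the setting. There 1 carrier was called, against 4 with DESeq2, 6 by the authors' adjusted p, 2 with a filter at 5 CPM, 0 with a fit of the 2 groups alone, 0 at the fold threshold and 0 to 3 with 1 library left out. The fit of the 2 groups alone called 0 genes of each of the 6 lists, and 0% of all genes. At the fold threshold 1 gene of the other carriers and 0 of the rest were called. DESeq2 called 6 arginine genes and the authors' adjusted p 5 of them, against 3. With 1 library left out, counts between genotypes in DIAM ran 0 to 4 (other carriers), 0 to 3 (sensing), 1 to 8 (response), 0 to 5 (arginine), 1 to 6 (glutamine and glutathione) and 1 to 9 (branched-chain breakdown). For DIAM against DMEM in KO and WT cells they ran 9 to 10 and 7 to 9, 14 to 17 and 12 to 14, 15 to 18 and 10 to 13, 7 to 8 and 8 to 9, 13 to 13 and 12 to 14, and 11 to 12 and 11 to 12 in the same order of lists. The cause of these moves was not tested. For single carriers 1315 repeats kept their call, 74 (over 30 results) lost it and 8 (over 2 results, Slc7a7 and Slc7a11 in KO against WT in DIAM) gained it.

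Same-numbered DIAM and DMEM libraries of 1 genotype had correlated deviations of 0 to 0.29 in KO and -0.06 to 0.22 in WT cells. These were over 0.1 in 5 of 8 pairs, and 5 of 8 matched their own number best, a hint from the data and not the design. Between genotypes they were -0.2 to 0.1. With the number as a replicate block, 20 carriers were called in KO cells (21 with the block nested in genotype), 23 in WT cells (23), 1 between genotypes in DIAM, and 0 in DMEM and for the interaction. The block dropped Slc7a3 in WT cells (adjusted p = 0.0589).

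Levels near 1 CPM (Slc7a3, Slc7a4, Slc38a4, Slc38a11) rest on few counts, and 7 carriers were too low to test. Carriers that share exon bases with a gene on the other strand are uncertain.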
